A study of Rattus norvegicus with 25 samples.

Results

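The common limb was compared with the alimentary limb in rats that had undergone Roux-en-Y gastric bypass (RYGB). The libraries were chosen by their titles: 3 of the common limb (RYGB_CL) and 3 of the alimentary limb (RYGB_AL), which make 6 of the 25 libraries of the series. RYGB makes a small stomach pouch and joins it to the jejunum. The alimentary limb then carries food from the pouch without bile, and the common limb lies beyond the junction where food meets bile and pancreatic juice. Both groups had RYGB surgery, and the series' design text counts both as glucotonic tissue, against non-glucotonic sham intestine. For reference, 3 jejunum libraries (Sham_JEJU) and 3 ileum libraries (Sham_IL) came from rats with sham surgery. For these 12 libraries the sources used here give no strain, age, time after surgery or distance of a section from the stomach. A library is named by its group and the number in its title, 1-1, 2-3 or 15-29 for both limbs. The labels do not say if a shared number marks a shared rat.

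The small intestine is graded along its length. Its upper part takes up most sugar, fat, iron and folate, while the ileum takes up bile acids and vitamin B12 and is rich in cells that release hormones of satiety. Both limbs after bypass are lengths of this graded tissue, the common limb being the more distal.

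None of the 32883 Ensembl rat gene IDs of the table could be paired with a gene symbol here. Results are therefore given by ID and by counts of IDs, and the tissue labels could not be checked against marker genes. Each library's place in expression between sham jejunum and sham ileum is given in their stead. Expression is in CPM, the counts of an ID relative to the scaled total of its library. The total counts ran from 34201873 to 49319824 in the RYGB_AL libraries and from 27731157 to 34488222 in RYGB_CL. They ran from 28514273 to 49306734 in Sham_JEJU and from 23701208 to 27936398 in Sham_IL. Scaling factors were 0.835 to 0.934 in RYGB_AL, 1.02 to 1.15 in RYGB_CL, 0.822 to 0.958 in Sham_JEJU and 1.06 to 1.23 in Sham_IL. Depth and scaling thus moved with the limb, and in the same direction with the sham segment. The part of depth in the results was not tested. The 10 most abundant IDs took 6.6% to 8.42% of each operated library. In bulk tissue, fewer cells of a type and less RNA per cell cannot be told apart.

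The limbs differed in 1504 IDs, 9.32% of the 16146 tested (edgeR's quasi-likelihood test, Benjamini-Hochberg adjusted p below 0.05). In RYGB_CL 670 of them were higher (4.15%) and 834 lower (5.17%). The higher IDs had a median log2 change of 1.26 (quartiles 0.94 and 1.86), the lower ones one of -1.06 (quartiles -1.56 and -0.77). The median standard error (SE) was 0.30 and 0.22 in these sets. A change of more than 4-fold was found for 138 higher and 130 lower IDs, and 199 and 385 changed by less than 2-fold. Over all IDs tested the median log2 change was 0.04.

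The higher and the lower IDs differed in abundance. IDs higher in RYGB_CL had a median of 10.2 CPM in that limb and 4.06 CPM in RYGB_AL. Those lower in RYGB_CL had a median of 96.9 CPM in RYGB_AL and 46.9 CPM in RYGB_CL. Among the 2216 IDs that averaged 100 CPM or more in the 6 libraries, 322 (14.5%) were called lower in RYGB_CL and 17 (0.767%) higher. Among the 2532 IDs under 1 CPM the order was the other way, with 75 called higher and 17 lower.

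The IDs called lower took 16.1% to 17.5% of the counts in the RYGB_AL libraries and 8.93% to 9.92% in the RYGB_CL libraries. Those called higher took 0.604% to 0.755% and 1.63% to 2.56%. These shares do not depend on the scaling of the libraries, but the IDs were chosen on the same counts, so the shares describe the size of the change and test nothing. The sham libraries, which were not part of that contrast, held 9.64% to 12.4% (Sham_JEJU) and 7.81% to 8.3% (Sham_IL) of their counts on the IDs called lower. On the IDs called higher they held 1.31% to 1.67% and 2.86% to 2.92%. Both sham segments thus differed in the same direction as the limbs, and on the IDs called lower each RYGB_AL library lay above every sham library. Those IDs were chosen for higher values in RYGB_AL than in RYGB_CL, so its high share against sham is partly set by that choice.

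**Figure D1:**
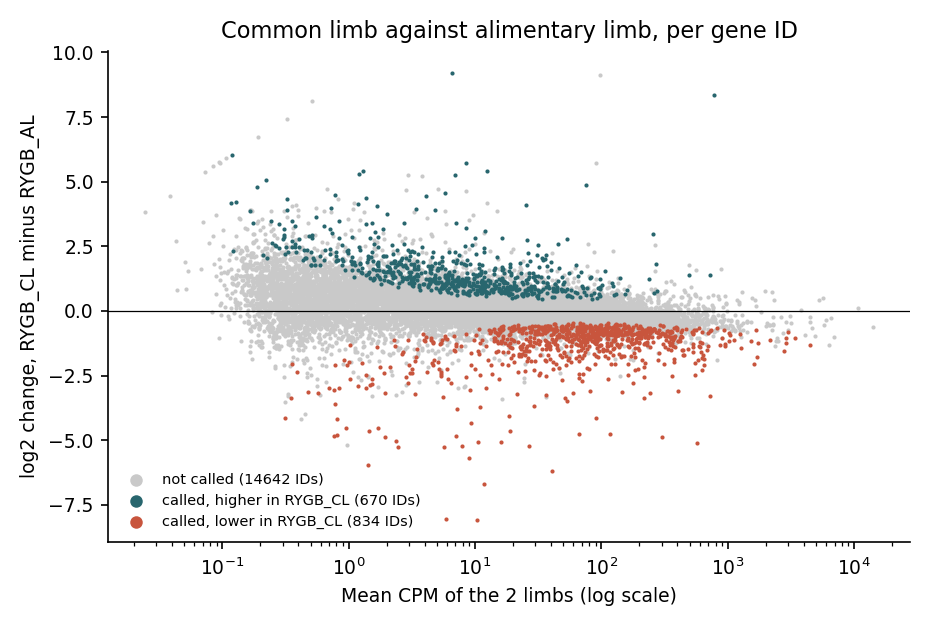
Each point is 1 of the 16146 gene IDs tested, by its mean CPM in both limbs (horizontal, log scale) and its log2 change, RYGB_CL minus RYGB_AL (vertical); colours mark IDs with an adjusted p under 0.05. The 834 lower IDs lie mostly at higher CPM than the 670 higher IDs.

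All 3 RYGB_CL libraries lay on one side of all 3 RYGB_AL libraries for 5168 IDs, 32% of those tested. This held for 657 of the 670 IDs called higher and for all 834 called lower. The IDs were called on these same libraries, so this follows largely from the calls and does not support them. No ID had at least 1 CPM in every library of one limb and under 0.1 CPM in every library of the other. The lower limit is strict, as 3 counts equal 0.0729 to 0.106 CPM in these libraries. ENSRNOG00000039698 missed it only by its 6 counts in RYGB_CL 15-29. A single called ID had no count at all in one limb. It was higher in RYGB_CL, and setting it at its lower bound of 3 counts over RYGB_AL left the medians and the counts past 4-fold as they were.

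The number of called IDs changed when single libraries were left out. Each omission also makes a group smaller, and the part of group size in these counts was not tested. Without RYGB_CL 15-29, edgeR called 2237 IDs (1009 higher and 1228 lower), and without RYGB_AL 1-1 it called 1020. It called 763 without RYGB_CL 1-1, 571 without RYGB_CL 2-3, 485 without RYGB_AL 15-29 and 396 without RYGB_AL 2-3. With only the 6 operated libraries in the fit, 432 IDs passed, and higher IDs made up 31.2% of them against 44.5% in the fit of 12 libraries. DESeq2 called 2771 IDs, of which 50.6% were higher.

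**Figure D2:**
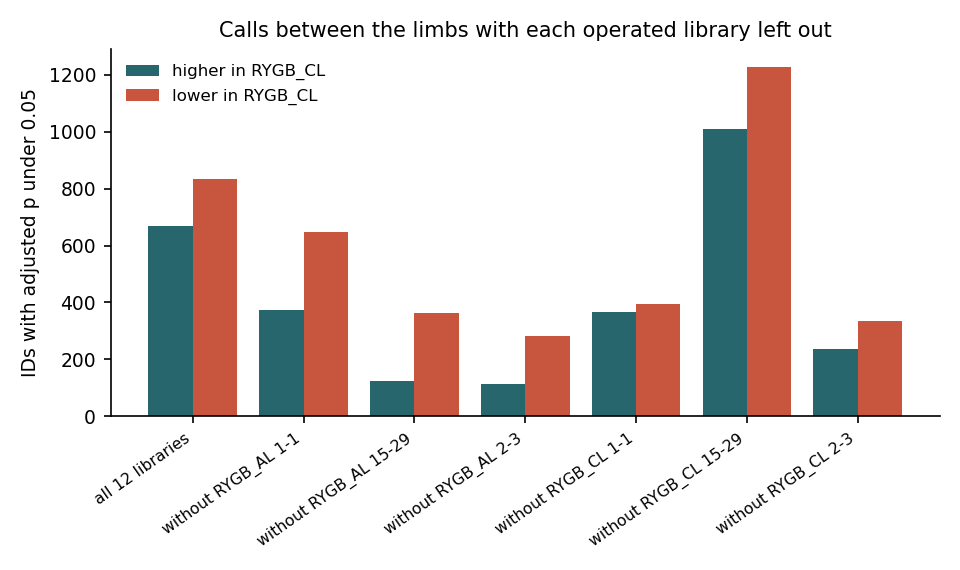
Bars give the number of gene IDs with an adjusted p under 0.05 between the limbs (vertical), higher or lower in RYGB_CL, with all 12 libraries and with each operated library left out (horizontal). The count rises above that of the full set only without RYGB_CL 15-29, and it is lowest without RYGB_AL 2-3.

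Of the IDs that averaged 5 CPM or more and had limbs that did not overlap, the largest rise in RYGB_CL was that of ENSRNOG00000012040. It stood at 0 CPM in RYGB_AL 1-1, 0.0313 CPM in 15-29 and 0.0243 CPM in 2-3. In RYGB_CL it reached 0.97 CPM in 1-1, 0.669 CPM in 15-29 and 37.7 CPM in 2-3. The common limb mean therefore came almost entirely from 1 library, although the other two also exceeded every alimentary library. The RYGB_AL libraries held 2 counts together, so the ratio of 824.5 carries wide counting error (95% interval 228 to 6815). The edgeR test gave a log2 change of 9.20 (SE 1.97, adjusted p = 0.0192), and without RYGB_CL 2-3 one of 5.197 (adjusted p = 0.0142). In sham rats the same ID was at 63.0 ± 22.2 CPM (SD, n = 3) in Sham_IL and at 6 counts over the Sham_JEJU libraries. The call was lost without any one of the RYGB_AL libraries (adjusted p = 0.0562 to 0.0984, edgeR), without the low-count filter (0.0575) and with only the operated libraries in the fit (0.0786).

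The second, ENSRNOG00000003902, was abundant. RYGB_AL libraries held 4.03, 7.82 and 2.33 CPM (1-1, 15-29 and 2-3) and RYGB_CL libraries 1301, 671 and 2667 CPM in the same order. Every common limb library thus lay far above every alimentary one, with RYGB_CL 15-29 as the lowest and 2-3 as the highest. Its log2 change was 8.36 (SE 1.34, adjusted p = 0.0066, edgeR), and it stayed past the threshold under all 12 alternatives, with an adjusted p of 4.59e-17 to 0.0426 and a log2 change of 7.71 without RYGB_CL 2-3. In sham rats it rose from 18.8 ± 23.5 CPM in jejunum to 4441 ± 945 CPM in ileum (SD, n = 3 each). All 3 Sham_IL libraries, at 3565 to 5442 CPM, lay above the highest RYGB_CL library.

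ENSRNOG00000039698 had the largest fall in RYGB_CL under the same rule. It was at 13.99, 21.6 and 26.7 CPM in RYGB_AL (1-1, 15-29 and 2-3) and at 0.0313, 0.211 and 0 CPM in RYGB_CL. The log2 change was -8.09 (SE 0.83, adjusted p = 0.000792, edgeR), and the call held under all 12 alternatives, up to an adjusted p of 0.0241. The log2 change was -10.19 without RYGB_CL 15-29 and -7.42 without RYGB_CL 2-3. Sham libraries of both segments held 0 to 0.263 CPM, so only the alimentary limb had more than 1 CPM of this ID.

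ENSRNOG00000002792 fell likewise, from a lower and less even level. RYGB_AL libraries held 0.77, 4.76 and 29.9 CPM (1-1, 15-29 and 2-3), while RYGB_CL libraries held 4 counts together and the 6 sham libraries 5. The alimentary libraries thus differed from each other many-fold, and the lowest still lay above every other library of the first cohort. The log2 change was -8.06 (SE 1.45, adjusted p = 0.0103, edgeR), which missed the threshold with only the operated libraries in the fit (adjusted p = 0.0545, edgeR). Without RYGB_AL 2-3 the log2 change was -5.95 (adjusted p = 0.029, edgeR).

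**Figure D3:**
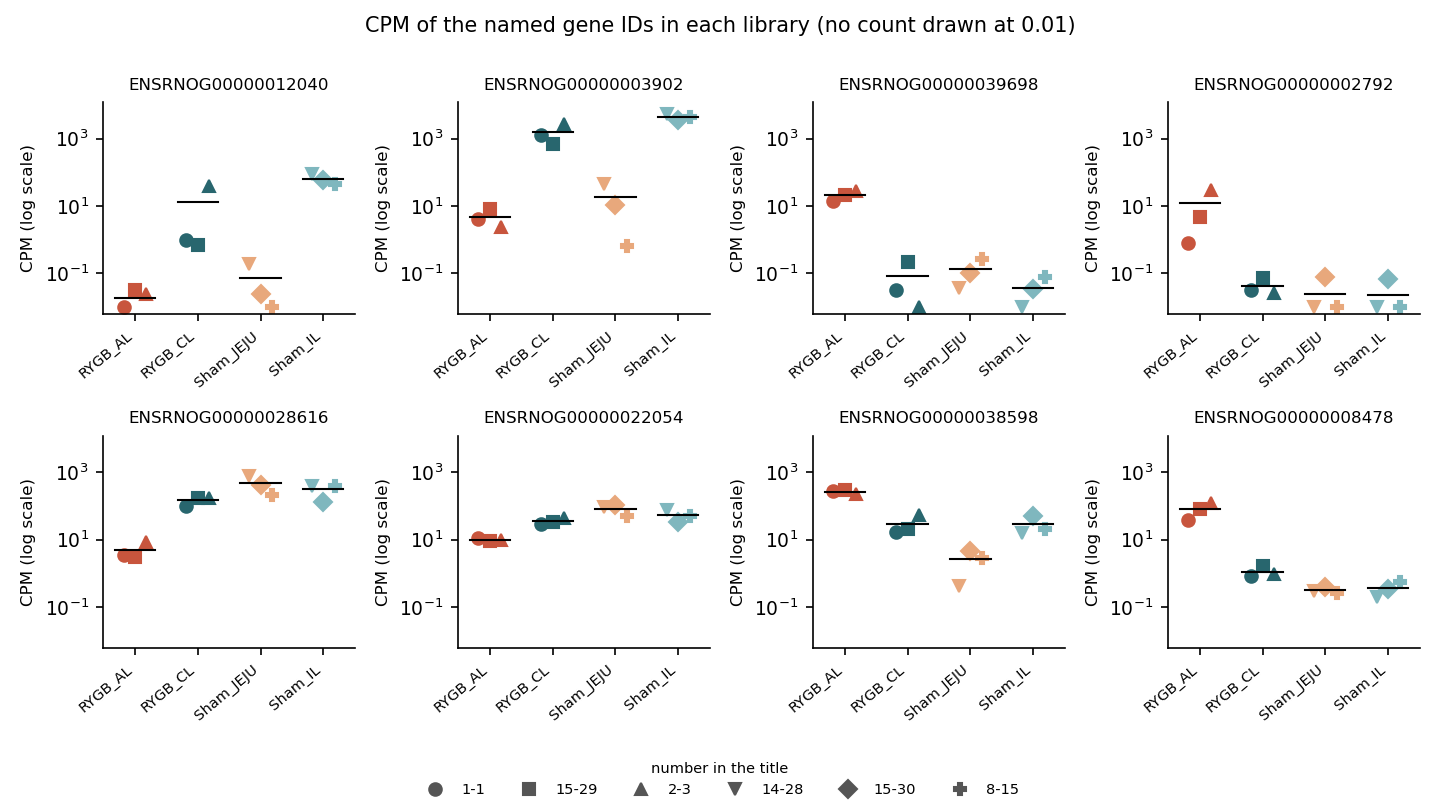
Each panel shows 1 gene ID, with CPM (vertical, log scale) in the 3 libraries of each group (horizontal); symbols mark the number in the library's title, black lines the group mean, and libraries without a count are drawn at 0.01. The first 2 panels are higher in RYGB_CL and in Sham_IL, and ENSRNOG00000039698 and ENSRNOG00000008478 stand above 10 CPM only in the RYGB_AL libraries.

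The gradient of operated rats was then set beside that of sham rats. Sham_IL against Sham_JEJU shares no library with the comparison of the limbs, though both were tested in one fit with a common spread. It gave 1489 calls (9.22% of the 16146 tested), with 444 IDs higher (2.75%) and 1045 lower (6.47%) in the distal segment. Of the IDs higher in Sham_IL, 385 (86.7%) were also on the higher side in RYGB_CL, against 53% of all IDs tested. Of the IDs lower in Sham_IL, 968 (92.6%) were on the lower side in RYGB_CL, against 47% of all. Read from the limbs, 85.2% of the IDs higher in RYGB_CL leaned the same way in sham rats, and 75.1% of those lower did. Across all IDs tested, both log2 changes correlated with Pearson's r = 0.474 and Spearman's rho = 0.527, where IDs are not independent replicates and low counts add scatter. Depth and scaling moved in the same direction along both gradients, and their part in this likeness was not tested.

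Fewer IDs passed the test in both. The distal-high calls shared 103 IDs, which is 23.2% of the sham and 15.4% of the operated list. Of all IDs tested, 4.15% were called higher in RYGB_CL and 2.75% higher in Sham_IL. The distal-low calls shared 216, which is 20.7% of the sham and 25.9% of the operated list. Of all IDs tested, 5.17% were called lower in RYGB_CL and 6.47% lower in Sham_IL. The shared parts were thus small, yet above the shares over all IDs. The sham distal-high IDs had a median log2 change of 1.34 in sham and 0.72 in operated rats, and the operated ones had 1.26 in operated and 0.50 in sham rats. For distal-low IDs the medians were -0.94 in sham and -0.50 in operated rats by the sham list, and -1.06 in operated and -0.36 in sham rats by the operated list. Each list was chosen on its own gradient and is larger there by that choice, so these medians do not rank the gradients. The 319 shared IDs became 571 without RYGB_CL 15-29. They fell to 64 to 171 without another operated library: 171 without RYGB_AL 1-1, 93 without RYGB_AL 15-29, 64 without RYGB_AL 2-3, 141 without RYGB_CL 1-1 and 93 without RYGB_CL 2-3. Of the sham libraries, leaving out Sham_IL 8-15 gave 79, Sham_IL 15-30 gave 92, Sham_JEJU 8-15 gave 137, Sham_IL 14-28 gave 162 and Sham_JEJU 15-30 gave 212. Without Sham_JEJU 14-28 the count rose to 352.

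**Figure D4:**
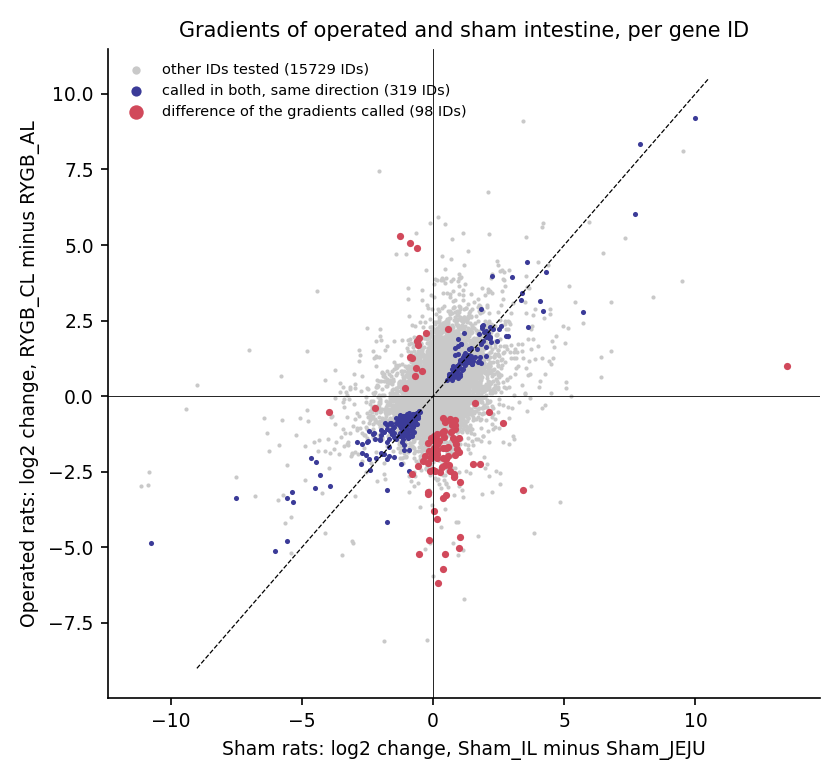
Each point is 1 of 16146 gene IDs, by its log2 change from jejunum to ileum in sham rats (horizontal) and from alimentary to common limb in operated rats (vertical); the dashed line marks equal change. The 319 IDs called in both lie along the diagonal, and most of the 98 IDs whose gradients differed lie below the horizontal axis near 0 in sham rats.

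Whether a gradient itself differed between operated and sham rats was tested as an interaction. It passed for 98 IDs (0.607% of those tested), by edgeR with an adjusted p under 0.05. The difference, operated minus sham gradient, was above 0 for 16 IDs (0.0991%) and below 0 for 82 (0.508%). This sign does not rank the levels of operated and sham rats. The split changed without RYGB_CL 2-3 and with the tool: 47 and 80 IDs passed without that library, and DESeq2 called 218 and 342. Over all IDs the median difference was 0.07 on the log2 scale. Of the 1504 IDs called between the limbs, 91 had a called difference from the sham gradient, against 98 of all IDs tested. The difference contains the change between the limbs, so this overlap is partly set in advance. For 554 of the higher and 540 of the lower IDs neither a sham call in that direction nor a called difference was found, so these data do not place them with either kind.

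The 82 IDs had a median log2 change of -1.83 from alimentary to common limb and 0.39 from sham jejunum to ileum. The gradients had opposite signs for 65 of them, and 16 were on the same side but steeper in operated rats. Their highest group mean lay in RYGB_AL for 79 of 82 IDs. The medians of their group means were 75.9 CPM in RYGB_AL, 20.1 CPM in RYGB_CL, 12.4 CPM in Sham_JEJU and 18.6 CPM in Sham_IL, so RYGB_AL was the group that stood apart. The 16 IDs of the other direction ran from a median of 6.61 CPM in RYGB_AL to 24.4 CPM in RYGB_CL, and from 40.3 CPM in Sham_JEJU to 21.2 CPM in Sham_IL. Their highest group mean lay in Sham_JEJU for 14 of 16. These are the same libraries on which the IDs were called, and the medians describe the calls.

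A small set ran opposite ways past the threshold in both kinds of rat. It held 11 of the 16146 IDs tested, of which 10 were lower in RYGB_CL and higher in Sham_IL. All 11 had a called difference, which calls in opposite directions largely bring about, so this adds no support. ENSRNOG00000038598 was among them, with the largest negative difference of the IDs that met the naming rule. In operated rats it fell from 269, 288 and 222 CPM in RYGB_AL (1-1, 15-29 and 2-3) to 16.2, 19.96 and 53.6 CPM in RYGB_CL (log2 change -3.12, SE 0.71, adjusted p = 0.0243, edgeR). In sham rats it rose from 2.63 ± 2.14 CPM in jejunum to 29.1 ± 19.7 CPM in ileum (SD, n = 3 each; log2 change 3.44, SE 0.74, adjusted p = 0.0209, edgeR). RYGB_CL and Sham_IL covered nearly the same range, and RYGB_AL lay above every other library. The difference of the gradients was -6.55 (SE 1.03, adjusted p = 0.0295, edgeR).

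ENSRNOG00000008478 had a difference of -6.36 (SE 0.74, adjusted p = 0.0102, edgeR) and passed under all 16 alternatives. Its RYGB_AL libraries held 37.3, 78.7 and 125 CPM (1-1, 15-29 and 2-3), its RYGB_CL libraries 0.844, 1.58 and 0.936 CPM, and the 6 sham libraries 0.202 to 0.557 CPM. Both limbs of operated rats thus lay above all sham libraries, the common limb by little. Between the limbs the log2 change was -6.17 (SE 0.49, adjusted p = 0.000183, edgeR).

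In the other direction, ENSRNOG00000028616 was nearly lost from the alimentary limb. RYGB_AL libraries held 3.53, 2.97 and 8.31 CPM (1-1, 15-29 and 2-3) and RYGB_CL libraries 99.2, 172.8 and 168 CPM. Sham rats had 468.5 ± 280 CPM in jejunum and 310.1 ± 159 CPM in ileum (SD, n = 3 each), which overlapped. The gradient was 5.48 higher on the log2 scale in operated rats (SE 0.83, adjusted p = 0.0226, edgeR). ENSRNOG00000022054 showed the same order at lower contrast, with 8.83 to 11.2 CPM in RYGB_AL, 29.5 to 43.8 CPM in RYGB_CL, 48.5 to 108 CPM in Sham_JEJU and 32.5 to 77.5 CPM in Sham_IL. Its difference was 2.45 (SE 0.47, adjusted p = 0.0422, edgeR).

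These differences were less firm than the calls between the limbs. Without 1 library the count of 98 ran from 8 to 127. Among the operated libraries, leaving out RYGB_AL 15-29 gave 12, RYGB_AL 2-3 19, RYGB_CL 1-1 45, RYGB_CL 15-29 86, RYGB_AL 1-1 103 and RYGB_CL 2-3 127. Leaving out a sham library gave 8 (Sham_IL 8-15), 12 (Sham_IL 15-30), 15 (Sham_JEJU 14-28), 36 (Sham_IL 14-28), 46 (Sham_JEJU 15-30) or 50 (Sham_JEJU 8-15). Among the named IDs, the call was lost in 3 of 16 alternatives for ENSRNOG00000028616 (adjusted p up to 0.0785), in 9 for ENSRNOG00000038598 (up to 0.0831) and in 11 for ENSRNOG00000022054 (up to 0.133), all by edgeR and without a change of sign. The difference of ENSRNOG00000028616 was 6.12 without RYGB_AL 2-3, and that of ENSRNOG00000038598 was -7.28 without RYGB_CL 2-3, -7.21 without Sham_JEJU 15-30 and -5.84 without Sham_IL 15-30.

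The expression of each library was placed between sham jejunum and sham ileum by an index made without operated libraries. This index compares expression and does not give the place of a section in the intestine. It is the mean log2 CPM of 200 IDs highest in Sham_IL over Sham_JEJU minus that of 200 IDs with the opposite pattern, set to 0 at the mean of Sham_JEJU and 1 at that of Sham_IL. The RYGB_AL libraries lay close together at 0.104 (1-1), 0.162 (15-29) and 0.113 (2-3), with a mean of 0.127 ± 0.031 (SD, n = 3). The RYGB_CL libraries lay at 0.578 (1-1), 0.33 (15-29) and 0.975 (2-3), with a mean of 0.628 ± 0.325 (SD, n = 3). All common limb libraries were thus nearer the ileal end than any alimentary one, but they were spread over much of the scale: 2-3 lay at the level of sham ileum and 15-29 nearer to jejunum than to ileum. No test was made of this index: with 3 libraries against 3 the smallest two-sided exact permutation p is 0.1.

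Sham libraries, each placed by an index made without its own number, averaged 0.0625 ± 0.2 in jejunum and 0.974 ± 0.187 in ileum (SD, n = 3 each). The 3 RYGB_AL libraries, at 0.104 to 0.162 on the full index, lay within the range of these Sham_JEJU values, -0.166 to 0.207. The indices differ, however, as each sham value came from an index made without its own number. On the full index the Sham_JEJU libraries, which help set its scale, lay at -0.0687 to 0.103. Every RYGB_AL library lay above them there, RYGB_AL 1-1 by little. Both parts of the index gave a like picture of the common limb. The ileum-high IDs alone placed it at 0.578 and the jejunum-high IDs alone at 0.66, while the alimentary limb lay at 0.0342 and 0.188.

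**Figure D5:**
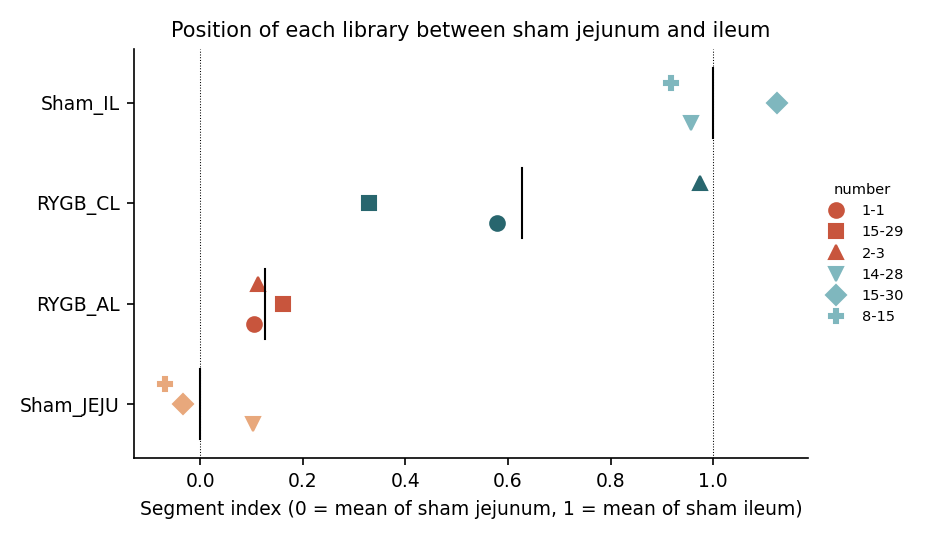
Each symbol is 1 library by its segment index (horizontal, no unit; 0 is the mean of sham jejunum and 1 that of sham ileum), in rows by group, with black lines at group means and symbols by the number in the title. RYGB_AL libraries lie at 0.104 to 0.162, and RYGB_CL libraries are spread from 0.33 to 0.975.

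The common limb libraries had the order 15-29, 1-1, 2-3 on the index. Of the 444 sham distal-high IDs, 129 (29.1%) rose in this order, against 16.7% of all IDs tested. Of the 1045 sham distal-low IDs, 404 (38.7%) fell in it, against 18.5% of all. Both shares lay above those of all IDs tested, though most members of both lists did not follow the order. The index was itself made from strongly changed IDs of the sham gradient, so these shares are a description. Within a group, 23.2% of the 1489 sham gradient IDs ranged over more than 2-fold among the RYGB_CL libraries, against 9.87% among the RYGB_AL libraries. For all other IDs tested these shares were 30.3% and 19.9%. The common limb was thus more spread than the alimentary limb in both sets, and the difference between the sets was not tested. In sham rats the shares were 16% and 29.5% in Sham_JEJU and 10.7% and 16.7% in Sham_IL. By the median SD of log2 CPM in both sets, Sham_JEJU (0.278 and 0.349) was about as spread as RYGB_CL (0.27 and 0.344). The sham gradient IDs were called on the sham libraries, so their spread there is partly set by that choice. RYGB_CL 15-29 was also the library without which the limbs gave the most calls. The part of section position in the calls between the limbs was not tested, and position and limb cannot be told apart in these libraries.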

How the data were processed

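Per the labels' protocols, total RNA was depleted of ribosomal RNA and sequenced as stranded libraries. The submitters' processing notes name FastQC, STAR and build rn6. How reads were counted (tool, annotation, strand, reads with several matches) is not given in the sources used here, so values of near-identical genes are uncertain. The deposited table holds the authors' raw counts, whole numbers per Ensembl gene ID. The 13 libraries of OLETF rats were not used.

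All 12 libraries of the first cohort were fitted together in 4 groups with edgeR 4.0.16 (R 4.3.3): filterByExpr (minimum count 10, minimum total 15), scaling by TMM, robust quasi-likelihood fits, and Benjamini-Hochberg adjusted p-values called under 0.05. The biological coefficient of variation was 0.314. Each SE was taken as the size of the log2 change over the square root of F. Members, lists and rules were chosen with earlier results of these data known. Without symbols, the gene lists could not be used. Named IDs are at most 2 in each direction per comparison, ranked by the size of the log2 change among called IDs that average 5 CPM or more in the operated libraries and whose limbs do not overlap. The index used IDs called in a fit of the sham libraries alone with at least 5 CPM, and log2 CPM with a prior count of 2.

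Alternatives were DESeq2 1.42.0, its size factors, no low-count filter, only the groups compared, each library left out and the number as a block. No library was a repeat of another: the lowest chi-square per degree of freedom within a group was 47.9. No label says that libraries came from separate rats, so p-values may measure technical spread only. Counting intervals cover counting error only.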

Additional observations from a re-analysis of the deposited data

Results flagged for a closer look

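The gradient along the intestine differed between operated and sham rats for 98 IDs when the difference itself was tested with edgeR (adjusted p below 0.05, 3 libraries a group). Of the named IDs, the difference (operated minus sham, log2 scale) was 5.48 for ENSRNOG00000028616, 2.45 for ENSRNOG00000022054, -6.55 for ENSRNOG00000038598 and -6.36 for ENSRNOG00000008478. Groups of 3 libraries are too small for a test of single outlying libraries.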

How the results depend on the processing

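The count between the limbs was 1504 and the sham count 1489. DESeq2 gave 2771 and 2639, and 773 for IDs shared by both gradients. For the difference of the gradients (operated minus sham) DESeq2 gave 560, with 38.9% of them above 0 against 16.3% by edgeR. A fit of only the operated libraries gave 432 between the limbs. The cause of these shifts was not tested. DESeq2 size factors in the edgeR test and no low-count filter kept each of these counts within 1.5-fold. Leaving out 1 library gave 396 to 2237 IDs between the limbs, 8 to 127 for the difference, 64 to 571 shared and 235 to 1580 in sham, with 235 without Sham_IL 15-30, 275 without Sham_IL 8-15, 546 without Sham_JEJU 8-15, 690 without Sham_JEJU 15-30 and 882 without Sham_IL 14-28. No alternative changed the sign of a named ID.

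Both limbs share numbers, but no label ties a number to a rat, and the libraries were not treated as pairs because not every number correlated above 0.1: deviations from the group mean correlated at r = -0.0481 (1-1), 0.166 (15-29) and 0.275 (2-3), and 2 of 3 libraries correlated best with their own number. With the replicate block edgeR called 907 IDs between the limbs, 688 in sham, 69 for the difference and 123 shared, and 190 between the limbs with only those libraries in the fit.

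The mean index of RYGB_AL was 0.077 to 0.218 when 1 sham number was left out of its making (0.218 without 15-30, 0.077 without 8-15). That of RYGB_CL was 0.529 to 0.688 under the 5 alternatives tried. Its libraries had an SD of 0.325, against 0.031 in RYGB_AL, so this range does not make it the firmer mean. The shared-ID alternatives and the block in the fit of operated libraries were added after the data were seen. Low IDs limit precision: 3 counts equal 0.0729 to 0.106 CPM in the operated libraries.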
